A study of Mus musculus with 3 samples.

Results

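The genes described are 6 members of the eicosanoid pathway, the cyclooxygenases Ptgs1 and Ptgs2, the prostaglandin dehydrogenase Hpgd, the leukotriene genes Alox5ap and Ltc4s, and the lipoxygenase Alox15. They were found by symbol in all 3 count tables, and are 6 of the 14148 genes measured. Sorted CD45+ cells, that is leukocytes, were profiled by droplet-based 3′ single-cell RNA sequencing from the muscularis externa, the outer muscle coat, of the small intestine. The mice were WT C57BL/6J animals of 12 weeks without any engineered allele, and were either naive or taken 24 h or 72 h after intestinal manipulation, a surgical handling of the bowel that inflames the muscularis. Each time point is 1 library pooled from several mice, so animals cannot be separated, the effect of time cannot be told apart from that of the library, and no test between libraries was possible. All errors below are 95% intervals for counting error alone.

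Eicosanoids are lipid mediators made from arachidonic acid that is cut out of membranes by phospholipases. Cyclooxygenases turn it into the precursor of prostaglandins and thromboxane, of which COX-1 (Ptgs1) is commonly constitutive and COX-2 (Ptgs2) inducible, and 15-hydroxyprostaglandin dehydrogenase (Hpgd) begins their breakdown. 5-lipoxygenase, with its membrane helper FLAP (Alox5ap), makes leukotriene A4, which leukotriene C4 synthase (Ltc4s) conjugates with glutathione to the first cysteinyl leukotriene. 12/15-lipoxygenase (Alox15) oxygenates polyunsaturated fatty acids and is a known product of resident peritoneal macrophages and eosinophils in mice. Prostaglandins and leukotrienes act on gut smooth muscle and on leukocytes.

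In the GENCODE vM21 annotation of GRCm38 all 6 are protein-coding. Ptgs1 lies at chr2:36230426-36252272 on the plus strand, Ptgs2 at chr1:150100031-150108227 (plus), Hpgd at chr8:56294585-56321043 (plus), Alox5ap at chr5:149264767-149288153 (plus), Ltc4s at chr11:50236461-50238616 (minus) and Alox15 at chr11:70344152-70352031 (minus). Ltc4s is overlapped by the antisense gene Gm26542, Alox5ap by Gm19719 and n-R5s180 on the opposite strand, Ptgs1 by Gm43621 on the opposite strand and Hpgd by Gm45540 on its own strand, whereas no annotated gene overlaps Ptgs2 or Alox15. How the counting treated reads in these overlaps was not tested. The 250 bases before the start of each cyclooxygenase gene are shown because this pair carries out the same reaction while its UMIs were spread differently over the cell classes. They are written 5′ to 3′ on the plus strand from RefSeq on GRCm38.p6, and capitals mark a GC box.
Ptgs1, chr2:36230176-36230425: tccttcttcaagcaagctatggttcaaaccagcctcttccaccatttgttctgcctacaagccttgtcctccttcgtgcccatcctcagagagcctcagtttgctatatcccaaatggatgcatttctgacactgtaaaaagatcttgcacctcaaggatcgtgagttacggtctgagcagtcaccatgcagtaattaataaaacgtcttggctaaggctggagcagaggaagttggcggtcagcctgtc
Ptgs2, chr1:150099781-150100030: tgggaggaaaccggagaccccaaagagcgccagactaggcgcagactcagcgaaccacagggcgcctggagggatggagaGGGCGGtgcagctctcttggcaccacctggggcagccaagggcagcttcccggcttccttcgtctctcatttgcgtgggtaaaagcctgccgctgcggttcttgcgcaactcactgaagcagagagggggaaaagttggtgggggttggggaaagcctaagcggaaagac
Both windows were searched on either strand for 6 short motifs. The motif of the TATA box, spelled TATAAA, was found in 12.4% of all 32851 promoter windows of this length and in neither of these. The GC box, spelled GGGCGG, was found in 32.7% of all windows and in that of Ptgs2 alone. Neither window held the E-box, which is spelled CACGTG and occurred in 6.02% of all windows. The core of the cyclic AMP response element, written TGACG, was likewise found in neither, and in 17.8% of all. The GATA motif was searched as AGATAA and in its other form, which begins with T instead, and like the CCAAT box it was found in neither, against shares of 16.6% and 33.8% of all windows. The match is a description of the letters and not of a binding site.

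The 3 libraries held 652 naive, 2211 24 h and 1239 72 h cells with total counts of 1865221, 10542346 and 5246731 unique molecular identifiers (UMIs), and median counts per cell of 2134.5, 4669 and 3295. Each pair of libraries shared 1 cell barcode. Cells were clustered without the pathway genes, so the level of these genes did not form the clusters, and clusters were called X-like from marker genes. Some subset markers of monocytes and macrophages (Mφs) are those the paper names from these samples, such as Ccl9 and Srgn for Arg1+ cells. Others are not named for these subsets in its main text, such as Cxcl3, Il1rn and Slc7a11 for Arg1+ cells and Prg4 and Fcna for Timp2+ Mφs. These were added here with earlier results of these data known, so the subset names are not independent of the data. Monocyte/Mφ-like cells numbered 127, 1519 and 556 in the naive, 24 h and 72 h libraries, neutrophil-like cells 12, 412 and 112, dendritic cell (DC)-like cells 21, 123 and 135, T cell-like cells 188, 71 and 136, and B cell-like cells 278, 38 and 79. A cluster of 15, 27 and 204 cells was left unnamed: it passed 4 of 7 neutrophil markers, and its leading genes were Gm12840, Ptgs2, Siglecf, Mmp9 and Il1r2. Of the eosinophil genes, Siglecf was thus high, while Ccr3 and Prg2 had no UMI in it at 24 h or 72 h. The paper describes eosinophils, marked by Siglec-f, among the main cells at 72 h. Whether the unnamed cluster matches them was not tested. The cluster is called the Ptgs2/Siglecf-led cluster. Neutrophil-like cells and this cluster were shallow, with medians of 756 to 1255 UMIs per cell at 24 h and 72 h against 5903 and 5321 in monocyte/Mφ-like cells. Markers of non-leukocytes of the muscularis were low in all 3 libraries, with summed levels of at most 4.96 CPM for fibroblasts, 3.62 CPM for enteric glia and 31.3 CPM for smooth muscle, where CPM is the count of a gene in a group of cells scaled to the total count of that group. No comparison was made for groups with under 20 cells.

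Ptgs2 was concentrated in neutrophil-like cells and the Ptgs2/Siglecf-led cluster, and this was so at each time point. In neutrophil-like cells its level was 935 CPM (843 to 1033) at 24 h and 1067 CPM (906 to 1247) at 72 h, from 381 and 157 UMIs. In the Ptgs2/Siglecf-led cluster it was 1487 CPM (996 to 2136) at 24 h and 2045 CPM (1857 to 2247) at 72 h, from 29 and 434 UMIs. Monocyte/Mφ-like cells, which made up most of the RNA at 24 h and 72 h, lay far lower, at 25.4 CPM (12.7 to 45.4) in the naive library, 29.9 CPM (26.4 to 33.7) at 24 h and 46.4 CPM (39.0 to 54.8) at 72 h. The neutrophil-like level of Ptgs2 was 31.3-fold (26.6 to 36.7) the monocyte/Mφ-like level within the 24 h library and 23.0-fold (18.2 to 29.1) within the 72 h library. DC-like cells ranged from 12.5 to 36.5 CPM, and T cell-like cells gave 2.10, 10.6 and 14.2 CPM. The T cell-like level is used here as a guide to the background from free RNA. That these cells lack the transcripts was not tested. At a higher clustering resolution a separate cluster of 12, 29 and 36 cells had natural killer and innate lymphoid markers, and the T cell-like class may hold such cells. In B cell-like cells Ptgs2 had no UMI in the naive and 24 h libraries, where 3 counts would be 3.77 and 23.6 CPM, and 43.5 CPM at 72 h, of which all but 3 of 19 UMIs came from a cluster of dividing cells. The order at 72 h therefore ran from the Ptgs2/Siglecf-led cluster through neutrophil-like cells to all other classes. The intervals of monocyte/Mφ-like, B cell-like and DC-like cells overlapped there.

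The share of cells with a Ptgs2 UMI gave the same order in spite of the shallow counts. At 24 h 194 of 412 neutrophil-like cells held one (47.1%, 42.2 to 52.0), and at 72 h 132 of 204 cells of the Ptgs2/Siglecf-led cluster did (64.7%, 57.7 to 71.3), with up to 13 UMIs in a cell. After each cell was thinned to 500 UMIs these shares were 34.7% and 52.9%, against 1.45% and 3.60% in monocyte/Mφ-like cells at 24 h and 72 h. The corresponding shares in T cell-like cells, before thinning, were 2.82% (median depth 2400 UMIs) and 3.68% (median 2710 UMIs). Neutrophil-like cells were themselves uneven: at 24 h the larger neutrophil-like cluster was at 1045 CPM and the smaller one, led by Acod1, at 401 CPM.

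The place of the Ptgs2 transcripts shifted between libraries. At 24 h, 54.4% (50.6 to 58.1) of the 701 Ptgs2 UMIs of the library lay in neutrophil-like cells, which held 3.87% of all UMIs, and 37.7% in monocyte/Mφ-like cells, which held 83.7%. By contrast, at 72 h 54.7% of 793 UMIs lay in the Ptgs2/Siglecf-led cluster, which held 4.04% of all UMIs, and 19.8% in neutrophil-like cells. Over all cells Ptgs2 stood at 22.0 CPM in the naive, 66.5 CPM in the 24 h and 151 CPM in the 72 h library. Within classes, the ratio of 72 h to 24 h was 1.14 (0.942 to 1.38) in neutrophil-like cells and 1.37 (0.944 to 2.08) in the Ptgs2/Siglecf-led cluster, both with intervals that spanned 1. In monocyte/Mφ-like cells it was 1.55 (1.25 to 1.91), and for Ptgs2 this became 1.99 with the mean over cells and 2.73 with each cell thinned to 500 UMIs. In B cell-like cells, with 0 UMIs at 24 h and 19 at 72 h, the interval of the ratio began at 1.35. The share of the Ptgs2/Siglecf-led cluster among all cells was 2.30%, 1.22% and 16.5% in the naive, 24 h and 72 h libraries. The naive library held only 12 neutrophil-like cells with 12 Ptgs2 UMIs and 15 cells of the Ptgs2/Siglecf-led cluster with 16, of 41 in all.

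**Figure D1:**
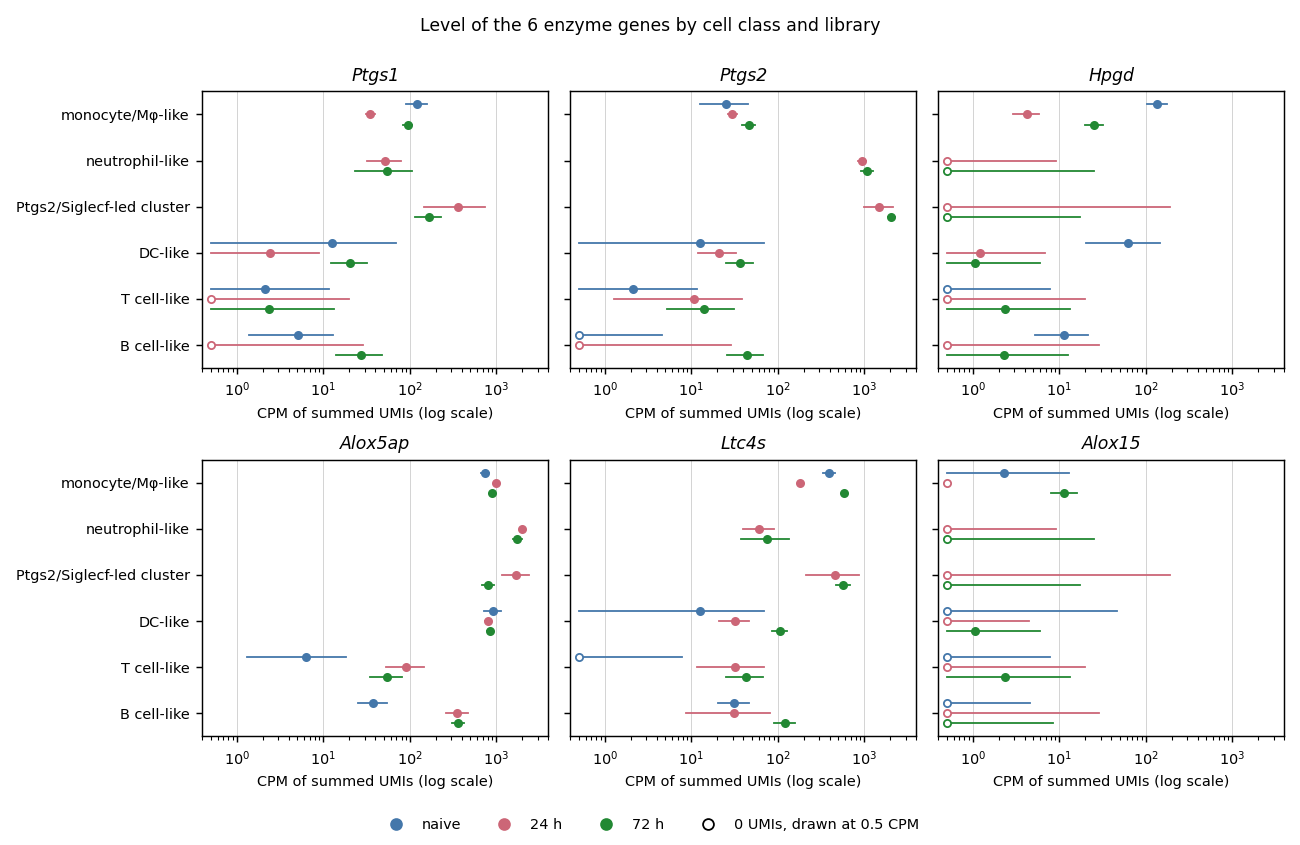
Level of each of the 6 genes (CPM of summed UMIs, log axis) by cell class, 1 point per library (blue, naive; red, 24 h; green, 72 h) with the 95% counting interval as a line; open points had 0 UMIs and are drawn at 0.5 CPM, and classes under 20 cells are left out. Ptgs2 separates neutrophil-like cells and the Ptgs2/Siglecf-led cluster, at 935 to 2045 CPM, from all other classes, at 46.4 CPM or less, and Hpgd in monocyte/Mφ-like cells lies at 136 CPM in the naive library and at 4.19 CPM at 24 h.

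Among monocyte/Mφ-like subsets Ptgs2 was low throughout. The highest value in a subset of more than 40 cells was in an Arg1+ subset led by Mmp12 and Cxcl3, at 96.1 CPM (60.9 to 144) at 24 h, where 12 of 48 cells held 23 UMIs. That was 3.65-fold (2.15 to 6.01) the level of Ly6c+ monocytes in the same library. Ly6c+, Fabp5+, Ccr2+ intermediate and the other Arg1+ subset, led by Ltc4s and Klk8, lay between 23.3 and 38.5 CPM at 24 h. The Arg1+ name of the Ltc4s/Klk8-led subset is weak, with 3 of 6 markers passed, against 4 of 6 in the Mmp12-led one. At a lower and a higher clustering resolution the subcluster led by Ltc4s and Klk8 went unnamed, with 1 and 2 of 6 markers for its best match. With fewer components a subcluster led by genes of both subsets was named Arg1+, with 5 of 6. Cd206+ and Timp2+ Mφs were at 44.4 and 54.5 CPM at 72 h, and Cx3cr1+ Mφs held 1 UMI in 67 naive cells and 2 UMIs in 20 cells at 72 h. An unnamed subcluster of 21 shallow cells at 72 h read 120.02 CPM from 5 UMIs, with an interval of 39.0 to 280.1 CPM.

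Ptgs1 showed a different arrangement, with its UMIs mostly in monocyte/Mφ-like cells. These held 76.5% of the 68 naive, 89.5% of the 344 24 h and 75.7% of the 371 72 h Ptgs1 UMIs, against 23.2%, 83.7% and 56.7% of all UMIs, so that at 24 h the share was near that of all UMIs. At 24 h 85 of the 344 lay in Ccr2+ intermediate cells and 70 in Ly6c+ monocytes. The Ptgs1 level of monocyte/Mφ-like cells as a whole was 120.1 CPM (89.7 to 157) in the naive library, 34.9 CPM (31.1 to 39.0) at 24 h and 94.5 CPM (83.7 to 106) at 72 h. The 24 h level was thus 0.291 times (0.216 to 0.398) the naive one, and the 72 h level 2.71 times (2.30 to 3.19) the 24 h one, while the interval of the 72 h to naive ratio, 0.787 (0.583 to 1.08), spanned 1. Without the Ltc4s/Klk8-led Arg1+ and Timp2+ subsets, left out after seeing the data, the Ptgs1 ratio of 72 h to naive was 0.507 (0.365 to 0.714) and that of 72 h to 24 h 1.93. The Ptgs2/Siglecf-led cluster was at 359 CPM (144 to 740) from 7 UMIs at 24 h and 165 CPM (115 to 229) from 35 UMIs at 72 h, that is 3.03-fold (1.38 to 7.57) the neutrophil-like level of 54.3 CPM. T cell-like cells, the guide to the background from free RNA, held 1, 0 and 1 Ptgs1 UMIs.

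Ptgs1 differed by subset. Cx3cr1+ Mφs, the resident type that made up 67 of the 127 naive monocyte/Mφ-like cells, were at 174 CPM (121 to 241) in the naive library and 195 CPM (123 to 292) at 72 h. Timp2+ Mφs, of which 12, 2 and 128 cells were found in the naive, 24 h and 72 h libraries, stood at 196 CPM (162 to 234) at 72 h, where 63 of 128 cells held a UMI. Cd206+ Mφs were lower, at 115 CPM (59.4 to 201) in the naive library and 71.3 CPM (57.5 to 87.3) at 72 h. The Timp2+ level was 2.75-fold (2.08 to 3.64) that of Cd206+ Mφs and 1.01-fold (0.641 to 1.65) that of Cx3cr1+ Mφs at 72 h. Of the subsets at 24 h, Ccr2+ intermediate cells were at 64.1 CPM (51.2 to 79.3), 2.02-fold (1.45 to 2.81) Ly6c+ monocytes at 31.8 CPM, whereas Fabp5+ cells were at 20.97 CPM and the Mmp12-led Arg1+ subset at 12.5 CPM. Where a subset had enough cells in 2 libraries, the interval of the Ptgs1 ratio spanned 1, with ratios of 72 h to naive of 1.12 (0.632 to 1.95) in Cx3cr1+ and 0.620 (0.339 to 1.24) in Cd206+ Mφs, and of 72 h to 24 h of 0.798 (0.501 to 1.24) in Ccr2+ intermediate cells. These intervals are wide and do not show that the levels were equal.

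How often cells with Ptgs1 also held Ptgs2, compared with all cells of the same group, varied by group. Of the 1519 monocyte/Mφ-like cells at 24 h, 12.0% held Ptgs2, against 13.7% of the 233 cells with Ptgs1 (32 cells). In the Ptgs2/Siglecf-led cluster at 72 h 64.7% of 204 cells held Ptgs2, against 62.5% of the 32 with Ptgs1. In Timp2+ Mφs at 72 h the shares were 17.97% and 20.6%. The gap was wider in Fabp5+ cells at 24 h, with 12.5% of all 415 cells and 24.5% of the 49 with Ptgs1, in Ccr2+ intermediate cells at 72 h, with 22.2% and 33.3%, and in B cell-like cells at 72 h, with 13.9% and 4 of 10 cells. It ran the other way in the Ltc4s/Klk8-led Arg1+ subset at 24 h, with 11.7% of all cells and 3 of the 40 with Ptgs1. At these depths a cell without a UMI may still express the gene.

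**Figure D2:**
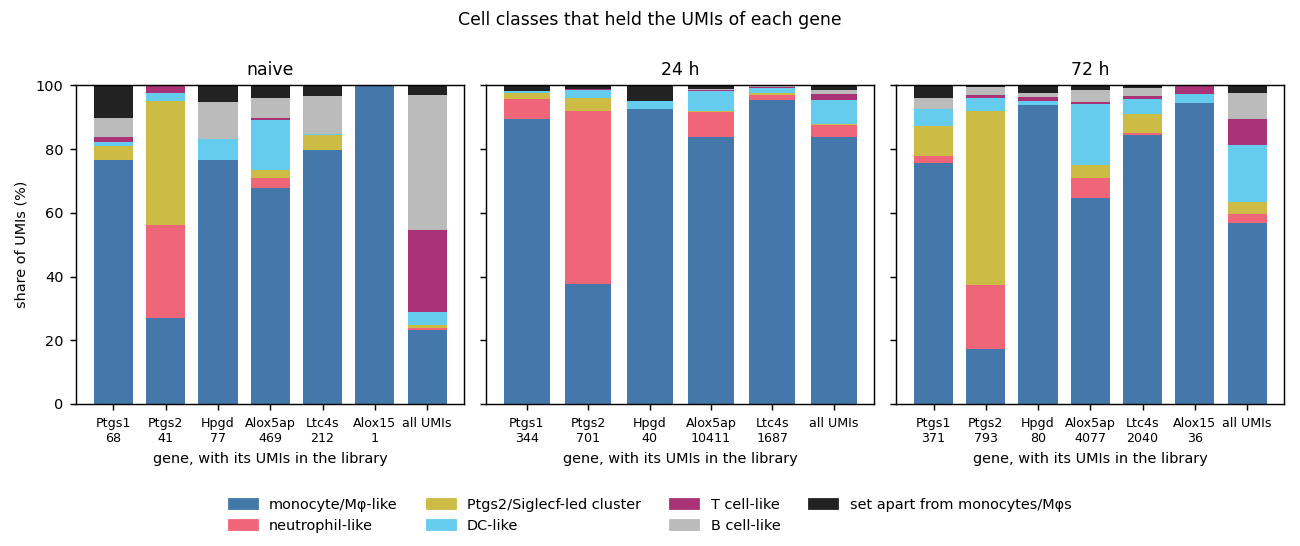
Share of the UMIs of each gene (percent, y axis) that lay in each cell class, in the naive, 24 h and 72 h libraries; the number under each gene is its UMIs in that library and the last bar gives all UMIs. Ptgs2 departs from all other genes and from the bar of all UMIs: 54.4% of it lay in neutrophil-like cells at 24 h and 54.7% in the Ptgs2/Siglecf-led cluster at 72 h.

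Hpgd was highest in naive Mφs and nearly undetected at 24 h. In monocyte/Mφ-like cells it was at 136 CPM (104 to 176) in the naive library, 4.19 CPM (2.95 to 5.78) at 24 h and 25.2 CPM (19.8 to 31.6) at 72 h, from 59, 37 and 75 UMIs. The 24 h level was 0.0308 times (0.0198 to 0.0472) the naive one, the 72 h level 6.02 times (4.01 to 9.18) that at 24 h, and the 72 h level 0.185 times (0.130 to 0.265) the naive one. The intervals of the 3 libraries did not overlap, and the 72 h level was still below the naive one. With each cell thinned to 500 UMIs the Hpgd ratios were 0.0669 for 24 h over naive and 2.73 for 72 h over 24 h, in the same directions. Neutrophil-like cells and the Ptgs2/Siglecf-led cluster, the cells richest in Ptgs2, held 0 Hpgd UMIs in each library, which at 24 h allows up to 7.36 CPM in neutrophil-like cells and at 72 h up to 14.1 CPM in that cluster (3 counts over the group). T cell-like cells held 1 UMI in all.

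Cx3cr1+ Mφs carried most of the naive Hpgd, at 228 CPM (167 to 304), with 46 of the 77 UMIs of the library in 30 of 67 cells. Cd206+ Mφs followed at 115 CPM (59.4 to 201), so that the Cx3cr1+ level was 1.99-fold (1.04 to 4.12) higher. At 72 h both subsets were lower than in the naive library, Cx3cr1+ Mφs at 67.7 CPM (ratio to naive 0.297, 0.121 to 0.634) from 8 UMIs and Cd206+ Mφs at 29.9 CPM (ratio 0.260, 0.133 to 0.546). At 24 h only 1 Cx3cr1+ and 3 Cd206+ cells were present, and 27 of the 40 Hpgd UMIs lay in Ccr2+ intermediate cells at 20.4 CPM (13.4 to 29.6), 5.61-fold (2.48 to 14.3) the Ly6c+ level of 3.63 CPM. Fabp5+ cells (415), the Ltc4s/Klk8-led Arg1+ subset (283) and the Mmp12-led Arg1+ subset (48) held no Hpgd UMI at 24 h, with limits of 0.999, 2.10 and 12.5 CPM for 3 counts. Timp2+ Mφs at 72 h were low as well, at 8.02 CPM (2.60 to 18.7), 0.268 times (0.0825 to 0.681) Cd206+ Mφs. Between the 24 h and 72 h libraries Hpgd was at 3.63 and 39.0 CPM in Ly6c+ monocytes, a ratio of 10.7 (3.32 to 33.9) that rests on 8 and 7 UMIs, and gave a ratio of 1.44 (0.722 to 2.76) in Ccr2+ intermediate cells. In CX3CR1 reporter mice the paper reports a drop in the percentage of CX3CR1-high Mφs during inflammation. It also reports that labelled resident Mφs did not fall in number, by imaging and flow cytometry. Whether fewer Cx3cr1+ Mφs in the 24 h library here came from losses in dissociation and sorting was not tested.

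Alox5ap was abundant in all myeloid classes. Monocyte/Mφ-like cells were at 734 CPM (656 to 819.5) in the naive, 989 CPM (969 to 1010.5) in the 24 h and 886 CPM (853 to 921) in the 72 h library. The Alox5ap ratio of 24 h to naive was 1.35, and 2.07 with each cell thinned to 500 UMIs. Neutrophil-like cells were at 1985 CPM (1850.2 to 2126) at 24 h and 1746 CPM (1539 to 1973) at 72 h, 2.01-fold (1.86 to 2.16) and 1.97-fold (1.73 to 2.24) the monocyte/Mφ-like level of the same library. DC-like cells lay at 909, 798 and 834 CPM. The Ptgs2/Siglecf-led cluster was at 1693 CPM (1165 to 2377) at 24 h and at 806 CPM (689 to 936) at 72 h, a ratio of 0.476 (0.326 to 0.714), and at 72 h stood at 0.461 times (0.378 to 0.562) neutrophil-like cells. T cell-like cells, the guide to the background, gave 6.31, 90.2 and 54.2 CPM. B cell-like cells read 37.7, 355 and 359 CPM, but 12.5, 131 and 157 CPM without the cluster of dividing cells.

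Within monocyte/Mφ-like subsets the level of Alox5ap lay between 461 and 1482 CPM. At 24 h the Ltc4s/Klk8-led Arg1+ subset (1449 CPM, 1387 to 1513) and Ly6c+ monocytes (1197 CPM, 1152 to 1244) were highest, and Fabp5+ and Ccr2+ intermediate cells were at 761 and 777 CPM with overlapping intervals. At 72 h Ly6c+ monocytes (1482 CPM) and Timp2+ Mφs (1302 CPM, in 119 of 128 cells) lay above Ccr2+ intermediate cells (815 CPM), Cd206+ Mφs (656 CPM) and Cx3cr1+ Mφs (507 CPM). The interval of Ly6c+ monocytes at 72 h, 1309 to 1671 CPM, overlapped that of Timp2+ Mφs, 1214 to 1395 CPM.

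Ltc4s was the most uneven of the abundant genes. Monocyte/Mφ-like cells were at 390.2 CPM (334 to 454) in the naive library, 183 CPM (174 to 192) at 24 h and 579 CPM (552 to 608) at 72 h, from 169, 1612 and 1724 UMIs. The ratios were 0.468 (0.399 to 0.552) for 24 h over naive, 3.17 (2.96 to 3.40) for 72 h over 24 h and 1.49 (1.27 to 1.75) for 72 h over naive, the value for 24 h over naive being 0.770 for Ltc4s with each cell thinned to 500 UMIs. Most of these UMIs lay in 2 subsets. At 24 h 1236 of the 1687 Ltc4s UMIs of the library were in the Ltc4s/Klk8-led Arg1+ subset, at 866 CPM (818 to 916) and in 233 of 283 cells, which was 24.8-fold (19.7 to 31.6) Ly6c+ monocytes at 34.9 CPM. Whether this weakly named subset matches the Arg1+ cells of the paper was not tested. At 72 h 1232 of 2040 were in Timp2+ Mφs, at 1976 CPM (1867 to 2089), in 121 of 128 cells and with up to 55 UMIs in a cell. In the naive library 108 of 212 came from 12 Timp2+ cells, too few to compare.

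The Timp2+ level of Ltc4s at 72 h was 9.24-fold (8.11 to 10.6) that of Cd206+ Mφs, at 214 CPM, and 26.0-fold (13.6 to 56.9) that of Cx3cr1+ Mφs, at 76.1 CPM. Ltc4s was among the leading genes of both high subsets although it had no part in forming them or in their marker lists. The paper had, however, already reported Ltc4s as high in Timp2+ Mφs from these same samples. Its height there is therefore not an independent finding. With both left out, a choice made after seeing the data, monocyte/Mφ-like cells stood at 158, 49.9 and 176 CPM, and the ratio of 72 h to naive became 1.11 (0.846 to 1.49) while that of 72 h to 24 h was 3.52 (3.05 to 4.07). Several groups also differed between the 24 h and 72 h libraries: the ratio was 3.04 (2.07 to 4.48) in Ccr2+ intermediate cells, 2.87 (1.62 to 4.84) in Ly6c+ monocytes, 3.53 (1.68 to 7.48) in the Mmp12-led Arg1+ subset and 3.32 (2.14 to 5.33) in DC-like cells. It was 3.84 (1.42 to 14.6) in B cell-like cells, from 4 UMIs at 24 h and 53 at 72 h. Without the cluster of dividing cells the counts were 1 and 12 UMIs. The levels were then 14.5 CPM (0.368 to 81.1) and 104 CPM (54.0 to 182), with overlapping intervals. Whether the rise went beyond myeloid groups is therefore not settled by these counts. The ratio spanned 1 in the unnamed subcluster (1.45, 0.450 to 3.61), neutrophil-like cells (1.22, 0.541 to 2.57), the Ptgs2/Siglecf-led cluster (1.22, 0.624 to 2.74) and T cell-like cells (1.33, 0.507 to 4.11). Over all cells Ltc4s was at 160 CPM at 24 h and 389 CPM at 72 h. Whether ratios in low groups follow free RNA was not tested. T cell-like cells held 0 Ltc4s UMIs in the naive library and read 31.8 CPM (11.7 to 69.3) at 24 h and 42.5 CPM (25.2 to 67.1) at 72 h. Levels of that size, among them Ly6c+ monocytes and Ccr2+ intermediate cells at 24 h and neutrophil-like cells (61.3 and 74.7 CPM), are thus near this untested guide to the background. Cd206+ and Cx3cr1+ Mφs gave 72 h to naive ratios of 0.859 (0.574 to 1.34) and 0.614 (0.252 to 1.36), both spanning 1.

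The Ptgs2/Siglecf-led cluster stood apart from neutrophil-like cells in Ltc4s too. It was at 462 CPM (211 to 876) at 24 h and 565 CPM (469 to 676) at 72 h, the latter in 75 of 204 cells and 7.57-fold (4.08 to 15.6) neutrophil-like cells. At 72 h its Ptgs1 and Ptgs2 were also higher, and its Alox5ap lower, than in neutrophil-like cells by more than counting error. The share of all genes that differed between these groups was not computed, so the differences cannot be called particular to these genes.

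**Figure D3:**
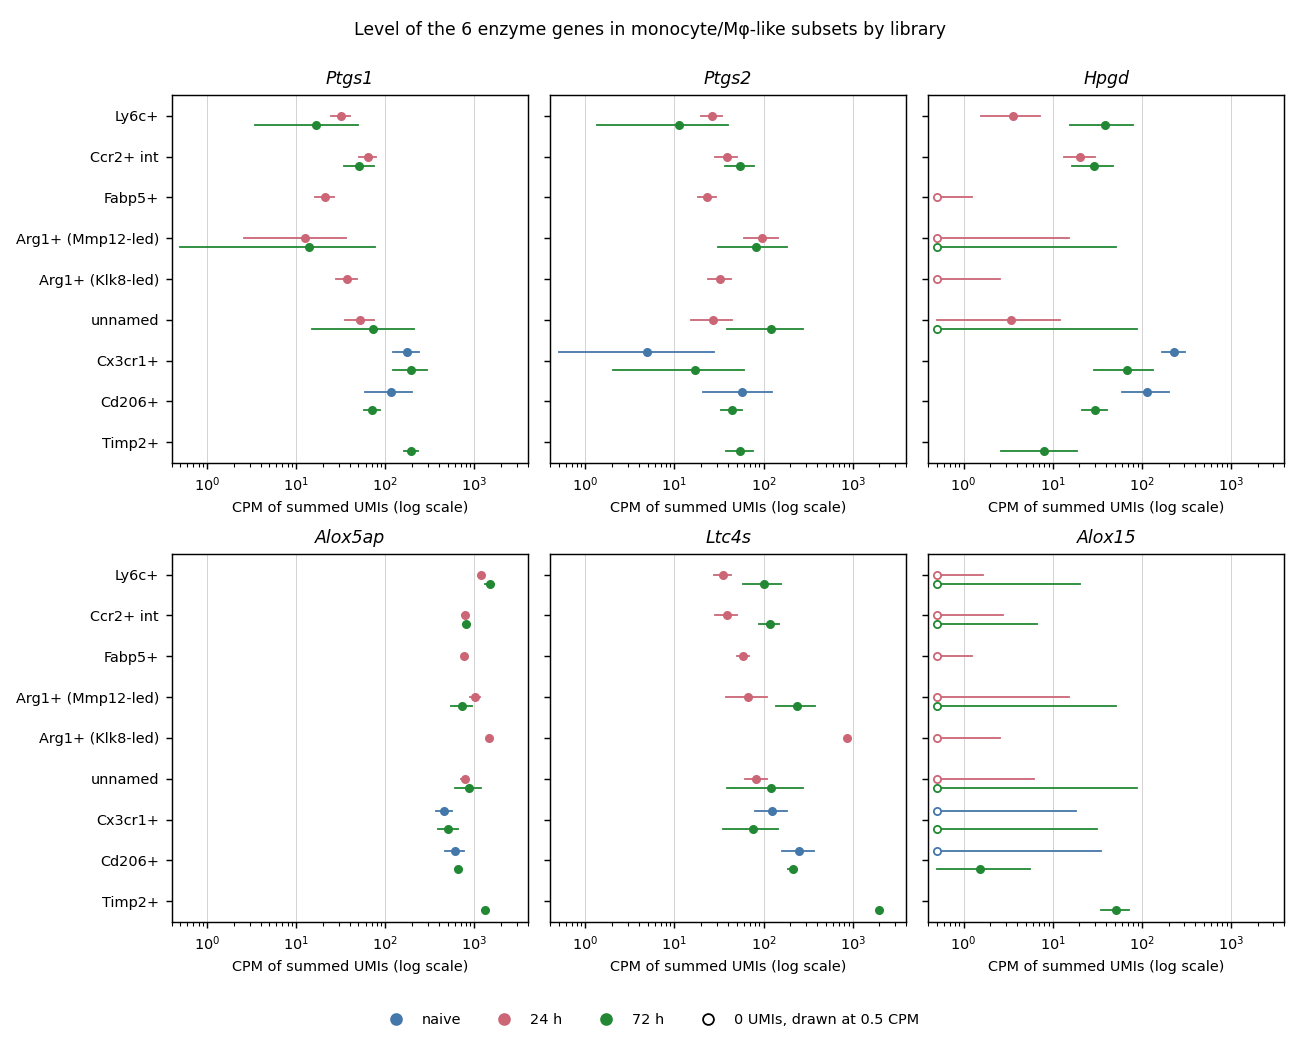
Level of each of the 6 genes (CPM of summed UMIs, log axis) in monocyte/Mφ-like subsets, 1 point per library (blue, naive; red, 24 h; green, 72 h) with the 95% counting interval as a line; open points had 0 UMIs and are drawn at 0.5 CPM, and subsets under 20 cells in a library are left out. Ltc4s peaks in Timp2+ Mφs at 72 h (1976 CPM) and in the Klk8-led Arg1+ subset at 24 h (866 CPM), Hpgd in naive Cx3cr1+ Mφs (228 CPM), and Alox15 reads above 2 CPM in Timp2+ Mφs alone.

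Alox15 was found in few cells, nearly all of them Timp2+ Mφs at 72 h. The 72 h library held 36 UMIs, of which 32 lay in Timp2+ Mφs (51.3 CPM, 35.1 to 72.5), 2 in Cd206+ Mφs and 1 each in DC-like and T cell-like cells. The 32 UMIs came from 11 of 128 cells (8.59%, 4.37 to 14.9), of which 1 cell held 12. The 24 h library held 0 Alox15 UMIs in 2211 cells, and the naive library 1, in a Timp2+ cell. Within the 72 h library the Timp2+ level was 33.5-fold (8.54 to 288) that of Cd206+ Mφs. For monocyte/Mφ-like cells as a whole the 72 h level was 11.4 CPM, and the counting interval of its ratio to 24 h began at 25.9. That ratio was 33.6 when 3 counts over the group, 0.340 CPM, stood in for the 0 found at 24 h. The 72 h level was 4.95-fold (0.830 to 201) the naive level of 1 UMI. With 2 Timp2+ cells at 24 h, a lower Alox15 level per Timp2+ cell and the small number of such cells cannot be told apart there.

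Most Timp2+ Mφs at 72 h held Alox5ap (93.0%) and Ltc4s (94.5%), and 49.2% held Ptgs1. Of 128 cells 115 held both Alox5ap and Ltc4s, 62 of the 63 cells with Ptgs1 (98.4%) also held Ltc4s, and of the 11 cells with Alox15 10 held Ltc4s and 10 held Ptgs1. In the Ltc4s/Klk8-led Arg1+ subset at 24 h 229 of 283 cells held Alox5ap and Ltc4s. Alox5, the 5-lipoxygenase itself, was sparser: it read 73.8 CPM (54.0 to 98.4) from 46 UMIs in Timp2+ Mφs at 72 h and 54.0 CPM (33.8 to 81.7) in neutrophil-like cells at 24 h.

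The members were set beside the rest of the pathway list, of which 53 of 66 listed gene symbols were found in the count tables. In monocyte/Mφ-like cells a gene was counted as higher or lower when the ratio of CPM + 10 between libraries was at least 2-fold and both groups together held at least 20 UMIs. This is a rule of size and not a test. For 24 h over naive, 5 members were counted, of which 0 were higher and 3 lower (Ptgs1, Hpgd and Ltc4s), where 3.78% of 9585 genes were higher and 3.52% lower. For 72 h over 24 h, 4 of the 6 members were higher (Ptgs1, Hpgd, Ltc4s and Alox15) and 0 lower, against 1.25% and 1.2% of 10028 genes. For 72 h over naive 0 of 6 were higher and 1, Hpgd, was lower, against 1.39% and 1.42% of 8255 genes. The shares of members past 2-fold exceeded the background for lower genes in both comparisons with the naive library, by 1 gene at 72 h, and for higher genes from 24 h to 72 h, over 6 genes that are few and were not drawn at random. Which members passed depended on depth. With each cell thinned to 500 UMIs, the plain CPM ratio for 24 h over naive was 0.770 for Ltc4s, 2.07 for Alox5ap and 0.0669 for Hpgd. For 72 h over 24 h it was 1.87 for Ptgs1, 2.73 for Ptgs2, 2.73 for Hpgd and 2.37 for Ltc4s. Ltc4s in the first comparison and Ptgs1 in the second thus fell short of 2-fold.

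Over the whole list 2 of 37 counted genes were higher and 5 lower for 24 h over naive, with a median log2 ratio of -0.08 against 0.04 over all counted genes. These counts became 6 and 3 with each cell thinned to 500 UMIs, and 6 and 7 with a pseudocount of 1 CPM. The higher ones were Anxa1 (annexin A1, an inhibitor of phospholipase activity), at 76.2 and 261 CPM, and Ltb4r1 (the leukotriene B4 receptor BLT1), at 16.2 and 60.6 CPM, a ratio of 3.75 (1.81 to 9.37). Beside the 3 members, the lower ones were Hpgds (hematopoietic prostaglandin D synthase), from 113 to 16.2 CPM or 0.143 times (0.103 to 0.202), and Alox5, from 32.3 to 3.74 CPM. Ptges3 (a cytosolic prostaglandin E synthase and co-chaperone) came next among the higher genes, at a log2 ratio of 0.90. For 72 h over 24 h 5 of 40 were higher and 0 lower, with a median of 0.15 against 0.00. Here Alox5, at 6.29 times (4.11 to 9.83), joined the 4 members, Hpgds fell just short at a log2 ratio of 0.98, and Anxa1 (-0.89), Ptges3 (-0.59) and Fam213b (a prostaglandin F synthase, -0.36) had the lowest ratios.

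For 72 h over naive 1 of 38 was higher, Ltb4r1 at 3.02 times (1.43 to 7.63), and 4 were lower. These were Pla2g2d (a secreted phospholipase A2), from 41.6 to 2.69 CPM, Hpgds, at 0.368 times (0.263 to 0.524), Slco3a1 (a transporter), at 0.226 times (0.0913 to 0.593), and Hpgd. With each cell thinned to 500 UMIs 3 were higher and 1 lower. The largest ratios below Ltb4r1 were those of Alox15 and Abcc4 (an exporter of prostaglandins, with 0 and 21 UMIs), at log2 values of 0.80 and 0.77, just ahead of Anxa1 at 0.76. The list's median was 0.15 against 0.03 over all counted genes. By role, for 72 h over 24 h the genes past 2-fold were 3 of 8 counted leukotriene and lipoxygenase genes, 1 of 9 of prostanoid synthesis and 1 of 10 of inactivation and transport, and 0 of 5 of arachidonate release and 0 of 8 receptors.

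**Figure D4:**
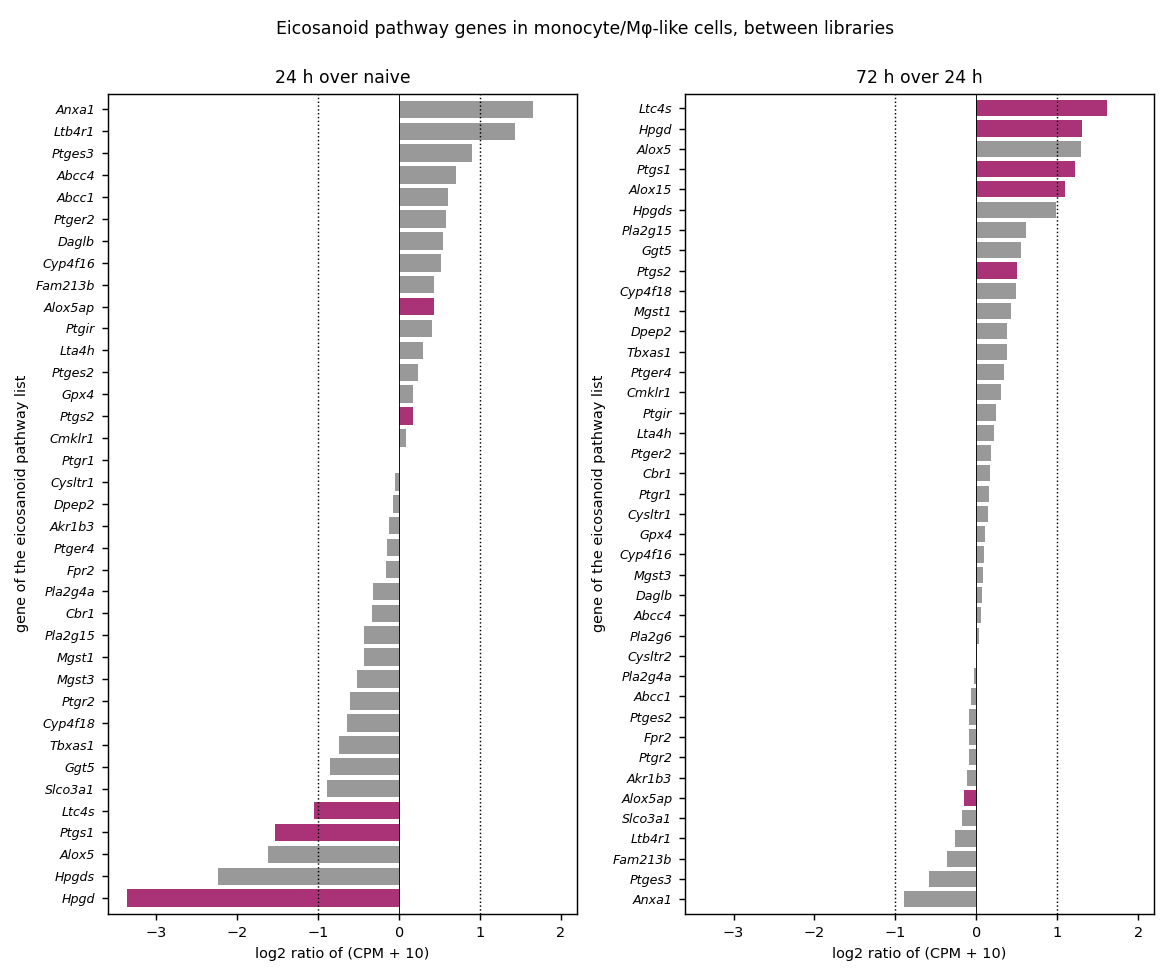
Log2 ratio of CPM + 10 in monocyte/Mφ-like cells for each counted gene of the pathway list, 24 h over naive (left) and 72 h over 24 h (right), with the 6 members in purple where counted, other genes in grey and dotted lines at 2-fold. Hpgd, Ptgs1 and Ltc4s lie beyond the lower line on the left and beyond the upper line on the right. With each cell thinned to 500 UMIs, not drawn, the plain CPM ratios of Ltc4s for 24 h over naive (0.770) and Ptgs1 for 72 h over 24 h (1.87) fell short of 2-fold.

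Tbxas1 (thromboxane synthase) was at 306 CPM (210 to 432) in naive Cd206+ Mφs, 287 CPM in Cx3cr1+ and 229 CPM in Timp2+ Mφs at 72 h, and Hpgds at 174 CPM (121 to 241) in naive Cx3cr1+ Mφs, so both were found in subsets with Ptgs1. The inducible prostaglandin E synthase Ptges was named after its values were seen, and did not exceed 4.18 CPM in any group of at least 20 cells, among them those rich in Ptgs2. The groups rich in Ptgs2 were shallow, however. In the Ptgs2/Siglecf-led cluster at 24 h 7 UMIs of Ptgs1 read 359 CPM, and in neutrophil-like cells at 72 h 8 UMIs read 54.3 CPM. Their counts thus leave room for Ptges levels above 4.18 CPM. In neutrophil-like cells, Ltb4r1 read 236 CPM at 24 h, Fpr2 (a receptor for annexin A1 and lipoxin A4) 255 and 299 CPM at 24 h and 72 h, Anxa1 439 and 448 CPM, and Cyp4f18, which inactivates leukotriene B4, 374 CPM at 72 h. Cyp4f18 was highest in Cx3cr1+ Mφs at 72 h, at 406 CPM (299 to 538), a subset that also held Cysltr1, a cysteinyl leukotriene receptor, at 118 CPM and the diacylglycerol lipase Daglb at 109.9 CPM. Mgst1 (a microsomal glutathione transferase) was at 323 CPM in Ly6c+ monocytes at 72 h, and Gpx4, which reduces lipid hydroperoxides, reached 969 CPM in Timp2+ Mφs. Lta4h, which makes leukotriene B4, read 149 CPM in naive DC-like cells, Ptges3 199 CPM in DC-like cells at 24 h and the aldose reductase Akr1b3 182 CPM in T cell-like cells at 72 h. Fam213b was at 119.9 CPM in Fabp5+ cells at 24 h. Dpep2 (a dipeptidase that acts on leukotriene D4) and Ptgr1 (a prostaglandin reductase) were at 167 and 125 CPM in the 20 cells of the Mmp12-led Arg1+ subset at 72 h, from 12 and 9 UMIs.

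The genes whose pattern was most like each member were sought over the 33 groups of a cluster or subset and a library with at least 20 cells, by Pearson's r of log2(CPM + 10). The groups share 3 libraries and differ in depth, so r is a description. Ptgs2 ran closest to Ccrl2 (r = 0.935), Il1r2 (0.922), Il1b (0.920), Trem1 (0.919) and Tnfaip2 (0.916), and Alox5ap to Cd300a (0.949), Ifitm2 (0.946), Pirb (0.934), Ifitm3 (0.934) and Spi1 (0.930). Alox15 was paired with Prg4 (0.986), itself a marker used to name Timp2+ Mφs, Serpinb2 (0.886), Gm41307, Gm26870 and Lyve1 (0.767). For Alox15 r rests on 1 group, because it was at 51.3 CPM in Timp2+ Mφs at 72 h and at most 2.91 CPM in any other. Hpgd ran closest to Gm35154 (0.892), Cyp27a1 (0.824), F11r, Sult1a1 and Serpinf1 (0.787), and Ptgs1 to Egr1 (0.816), Ski, Adgre1 (0.789), which encodes F4/80, Rnf13 and Itpripl2 (0.780). Likeness was weakest for Ltc4s, whose nearest genes were Pon2 (0.769), Ptgs1 (0.711), Mitf, Cd5l and Itgb1 (0.684), so that Ptgs1 was the only member among another member's nearest genes.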

How the data were processed

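Sorted CD45+ cells were sequenced with the 10x v2 3′ kit in 3 libraries. Per the labels, the authors aligned reads to GRCm38/mm10 and made UMI counts per gene and cell with Cell Ranger 3.0.2. These deposited counts are whole numbers and not normalized, and the tables hold cells with at least 500 UMIs. No further cell filter was applied and doublets were kept.

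Clustering of all cells together used Seurat 5.3.0 (R 4.3.3) on 2000 variable genes that left out the pathway genes, at resolution 0.8 with 20 neighbours and 30 principal components, or 20 components within monocyte/Mφ-like cells. A cluster was named when at least 3 markers were found in at least 10% of its cells at 2-fold or more above the others, unless its 10 leading genes held more markers of another class than of its own. The Ptgs2/Siglecf-led cluster passed for neutrophils but had Siglecf, an eosinophil marker, and no neutrophil marker among them. A small group of 11, 21 and 17 cells led by B cell genes was set apart from Mφs. UMIs were summed per group and library with pandas 2.3.3 and numpy 2.4.6 and given as CPM, with exact Poisson intervals, Clopper-Pearson intervals for shares and exact conditional Poisson intervals for ratios at 95% (scipy 1.17.1). The intervals were run on simulated Poisson sums and covered the true ratio for 95.95% of genes. That coverage follows from how the sums were drawn, and uneven counts between cells were not simulated. In the same simulation, made for 72 h over 24 h, 99% of 4-fold increases and 66% of 4-fold decreases passed the 2-fold rule of size, so counts of lower genes may miss some. The genes, lists and groups were chosen with earlier results of these data known. Genes named beside the 6 were those of the pathway list with at least 100 CPM in a group of at least 20 cells, the 3 largest and 3 smallest ratios of each comparison, and for each member the 5 most alike genes with at least 50 CPM in a group. Alternatives changed the resolution, components, variable genes, cell filter, doublets, depth per cell, mean over cells, scaling, pseudocount and count filter.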

Additional observations from a re-analysis of the deposited data

How the results depend on the processing

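No paired analysis was possible because each group has 1 library. For the same reason no library could be left out. Of the values for each gene and the list counts in monocyte/Mφ-like cells, 224 stayed within their counting interval, or within 1.5 times for counts, under the alternatives, 31 moved and 0 single ratios reversed. The balance of list genes higher and lower did turn round for 24 h over naive and 72 h over naive with each cell thinned, as given next.

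With the mean over cells in place of the sum, the ratio of 24 h to naive became 1.64 for Alox5ap and 0.573 for Ltc4s, that of 72 h to 24 h 1.99 for Ptgs2 and 2.93 for Ltc4s, and that of 72 h to naive 1.41 for Alox5ap, and 2 list genes rather than 1 were higher for 72 h over naive. With each cell thinned to 500 UMIs, which leaves few counts, 24 h over naive became 0.0669 for Hpgd, 2.07 for Alox5ap and 0.770 for Ltc4s, with 6 list genes higher and 3 lower, against 2 and 5. For 72 h over 24 h it became 1.87 for Ptgs1, 2.73 for Ptgs2, 2.73 for Hpgd, 0.838 for Alox5ap and 2.37 for Ltc4s, with 3 list genes higher and 1 lower, against 5 and 0. For 72 h over naive it became 5.03 for Ptgs2, 1.73 for Alox5ap and 1.83 for Ltc4s, with 3 list genes higher and 1 lower, against 1 and 4. With a pseudocount of 1 CPM 6 list genes were higher for 24 h over naive and 4 for 72 h over naive. Without the Ltc4s/Klk8-led Arg1+ and Timp2+ subsets, an alternative chosen after seeing the data, 72 h over 24 h was 1.93 for Ptgs1, 0.840 for Alox5ap and 3.52 for Ltc4s, 24 h over naive was 0.316 for Ltc4s, and 72 h over naive was 0.507 for Ptgs1 and 1.11 for Ltc4s. Apart from this construction, the cause was not tested. Depth limits Alox15, with 1, 0 and 36 UMIs in the naive, 24 h and 72 h libraries.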
